A study of Homo sapiens with 12 samples.

Results

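The aminoacyl-tRNA synthetase genes were selected by symbol: a single amino acid letter followed by ARS, with or without the 2 that marks a mitochondrial enzyme, together with EPRS, FARSA, FARSB and TARSL2, which do not follow that pattern. The rule found 35 genes among the 9529 genes measured, and all 35 passed the filter on low values. By the established assignment of their products, 19 encode cytosolic enzymes, 14 encode mitochondrial enzymes, and GARS and KARS encode both forms. FARS2, PARS2 and VARS2 were not analysed here.

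Each of these enzymes joins an amino acid to its tRNA at the cost of ATP, the step that sets the meaning of the genetic code. Cytosolic enzymes serve translation of nuclear messages, and a separate set of nuclear-encoded enzymes is imported into mitochondria to charge the mitochondrial tRNAs. Several cytosolic enzymes (EPRS, IARS, LARS, MARS, QARS, RARS, DARS and KARS) are held in 1 multisynthetase complex by the scaffold proteins AIMP1 and AIMP2. Many cytosolic synthetase genes are also known targets of ATF4, the transcription factor of the amino acid stress response.

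NOMO-1, a human acute myeloid leukaemia cell line, carried puromycin-selected lentivirus. The hairpin was either the non-targeting shNS or 1 of 2 directed at ALKBH5, an RNA demethylase that removes N6-methyladenosine from mRNA. Poly(A) RNA was taken after 0, 8 and 12 h in actinomycin D, which blocks transcription, so that the mRNA still present reports on its decay. There were 12 libraries in 6 groups: 2 shNS replicates at each time, and 1 library of each ALKBH5 hairpin at each time. The hairpin libraries carry the letters D and E in the deposited table, used here as line names, and the sources used here do not tie either letter to a numbered hairpin. The labels' treatment protocol speaks of lentivirus against FTO and of the drugs CS1 and CS2, whereas titles name ALKBH5 and actinomycin D. Groups here follow the titles. No label says whether replicates came from separate cultures. The p-values therefore cover only the spread among these libraries, which may be technical, and each hairpin is represented by a single line.

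ALKBH5 read 84.3, 35.9 and 8.22 (normalised signal) at 0, 8 and 12 h in shNS replicate 1 and 78.6, 32.1 and 8.30 in replicate 2. Line D read 25.4, 1.52 and 0.636, and line E 21.2, 4.29 and 0.973. Both lines lay below both shNS replicates at all times, with 31.2% (D) and 26.0% (E) of the control mean before actinomycin D. Over all times ALKBH5 was lower by limma in line D (log2 change -2.65, SE 0.16, adjusted p = 4.57e-58) and in line E (-2.28, SE 0.16, adjusted p = 2.88e-42). The spread behind these p-values is shared between genes and hardly that of ALKBH5 itself. The total gene signal was 826000 to 953211 at 0 h, 390103 to 580217 at 8 h and 143765 to 193639 at 12 h, while the median ERCC spike-in signal stayed between 29.9 and 33.1 in every library. No read counts were available, so read depth is unknown. Of 11 myeloid markers 7 were in the table, including PTPRC, CD33, SPI1 and LYZ. The myeloid markers CSF1R, CD14, MPO and FCGR1A were not in it. Of 5 T and NK cell markers only NKG7 was in the table, of 3 B cell markers only 1, and no erythroid or epithelial marker. NKG7 read 392 and 371 in the shNS replicates at 0 h, above the highest myeloid marker, CD4, at 226 and 211. The summed myeloid markers read 708 to 747 in shNS and 965 to 1076 in the knockdown lines at 0 h. CD68 was called higher in both lines (1.15 in D, adjusted p = 4.26e-11, and 1.07 in E, adjusted p = 4.19e-09), and LYZ and ITGAM were also called higher in both. In line D PTPRC (-0.79, adjusted p = 5.83e-06), CD4 (-0.38, adjusted p = 0.0475) and NKG7 (-0.91, adjusted p = 3.69e-07) were called lower, and in line E none of these 3 was called. Their part in the results below was not tested.

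Promoter windows of 300 bases, 250 before to 50 after each start, were available from RefSeq (GRCh38.p14) for 28 of the 35 genes. They were searched on both strands for TGATGNAA, the core letters of the element through which ATF4 acts on amino acid stress genes, and for CACGTG, the E-box. Genes without a window included AARS2, DARS, LARS and VARS. At least 1 window of the gene held TGATGNAA in 8 of the 28 synthetase genes: 6 of 14 cytosolic genes, 1 of 2 dual genes (GARS) and 1 of 12 mitochondrial genes (YARS2). Over all 27303 genes with a window the share was 4.46%. The 6 cytosolic matches are shown because they share these letters within 60 bases, with the match in capitals and each sequence read 5′ to 3′ on the strand of the gene. AARS lies at chr16:70289660-70289719 (minus strand), CARS at chr11:3057392-3057451 (minus), IARS at chr9:92293677-92293736 (minus), MARS at chr12:57488038-57488097 (plus), NARS at chr18:57621789-57621848 (minus) and TARS at chr5:33440941-33441000 (plus).
AARS: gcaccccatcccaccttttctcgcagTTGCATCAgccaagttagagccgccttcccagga
CARS: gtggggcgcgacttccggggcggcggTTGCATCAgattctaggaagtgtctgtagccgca
IARS: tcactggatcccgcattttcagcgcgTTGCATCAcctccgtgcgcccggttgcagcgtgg
MARS: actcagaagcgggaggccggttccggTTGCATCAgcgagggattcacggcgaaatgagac
NARS: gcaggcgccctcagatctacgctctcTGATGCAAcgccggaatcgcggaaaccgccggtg
TARS: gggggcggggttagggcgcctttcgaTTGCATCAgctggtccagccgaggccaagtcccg
The element is on the opposite strand in AARS, CARS, IARS, MARS and TARS, where it reads TTGCATCA, and on the gene's own strand in NARS. Its first base lies 187 bases before the start in AARS, 13 in IARS, 4 in MARS and 2 in CARS, and 2 and 14 bases past the start in TARS and NARS. CACGTG was found in 4 of the 28 genes (CARS2, EARS2, IARS and MARS2), against 8.78% of all genes. Both are matches of letters in a window and describe no binding. At 0 h the 8 genes with TGATGNAA had a median of 128% (D) and 119% (E) of the shNS mean, and the 20 searched genes without it 119% and 125%. The order of the groups with and without the element was opposite in the lines.

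At 0 h the cytosolic synthetase mRNAs stood well above the mitochondrial ones. The median signal in shNS replicate 1 was 101 for the 19 cytosolic genes, 239 for the dual genes, 22.8 for the 14 mitochondrial genes and 28.7 for all genes. Levels of different genes are compared per kilobase of mRNA as well, because whether the deposited signal is already per length is not stated. Per kilobase the median of the shNS mean was 30.5 for cytosolic, 8.03 for mitochondrial and 8.65 for all 8752 genes with a coding transcript in GENCODE release 29. The order was therefore the same on both scales. The 8 enzymes of the multisynthetase complex had a median signal of 199 in shNS replicate 1, and 50.6 per kilobase in the shNS mean.

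For 14 amino acids both the cytosolic and the mitochondrial gene were measured. The mitochondrial mRNA was the lower one in 13 of these 14 pairs, on the signal scale and per kilobase. The shNS mean of the cytosolic gene was 20.5 times that of its partner for EPRS over EARS2, the glutamate pair, and 18.3 times for YARS over YARS2, the tyrosine pair. It was 1.34 times for IARS over IARS2 and 1.18 times for HARS over HARS2. The exception was the cysteine pair, where CARS reached 0.892 of CARS2. HARS and HARS2 are read head to head from opposite strands and overlap by their annotated ends (chr5:140673904-140691862 and chr5:140691426-140699318, GRCh38). Whether strand was used in counting is not stated, so the split between them is uncertain.

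**Figure D1:**
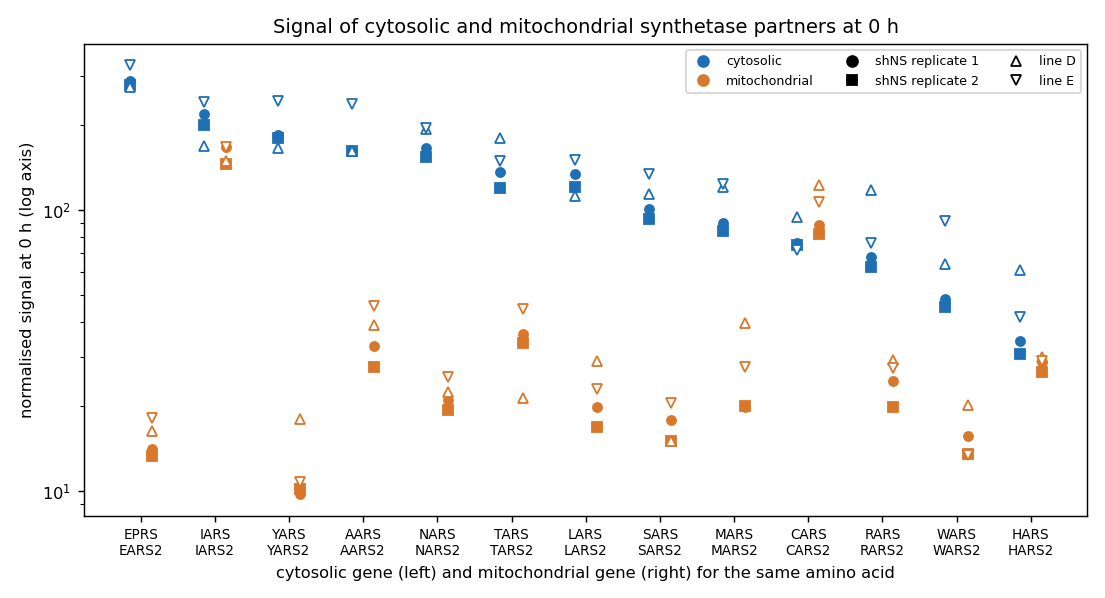
Normalised signal at 0 h (log axis) of 13 of the 14 pairs of cytosolic and mitochondrial synthetase genes, 1 marker for each library. The mitochondrial gene lies below its cytosolic partner in all plotted pairs but CARS and CARS2, and the pairs IARS with IARS2 and HARS with HARS2 lie closest together among the other 12.

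After transcription was blocked, synthetase mRNAs fell with the bulk of mRNA, and less was left of the mitochondrial ones, a difference described here by counts and medians and not tested as such. On the deposited scale, relative to the spike-ins, 34 of the 35 genes were called lower by 8 h in shNS (limma, adjusted p under 0.05), against 82.2% of all genes, and all 35 by 12 h, against 99.5%. None was called higher at 8 h, against 0.0315% of all genes, or at 12 h, against 0.0105%. WARS, at -0.56 (SE 0.28, adjusted p = 0.0855), was the gene not called at 8 h. It kept 67.6% and 67.1% in shNS replicates 1 and 2. The model estimates the spread from all 6 groups, so the SE of a change in shNS includes the difference between lines D and E. The median percent of the 0 h signal left at 8 h was 46.1 and 42.1 for cytosolic genes in shNS replicates 1 and 2, 30.9 and 31.1 for mitochondrial genes, and 42.2 and 41.1 for all genes. At 12 h it was 13.4 and 14.1 for cytosolic, 7.87 and 8.43 for mitochondrial and 11.9 and 12.9 for all genes. Of the 14 mitochondrial genes, 12 lay below the median of all genes at 8 h in each shNS replicate, and 12 and 11 at 12 h. Of the 19 cytosolic genes, 7 and 9 lay below it at 8 h and 8 and 9 at 12 h. Within pairs, less of the mitochondrial mRNA was left than of its cytosolic partner in 10 of 14 pairs, at both times and in both shNS replicates, the exceptions being CARS2, IARS2, RARS2 and TARS2. The same held in all 4 series of libraries, lines D and E included, in 8 of 14 pairs at 8 h and 7 at 12 h.

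**Figure D2:**
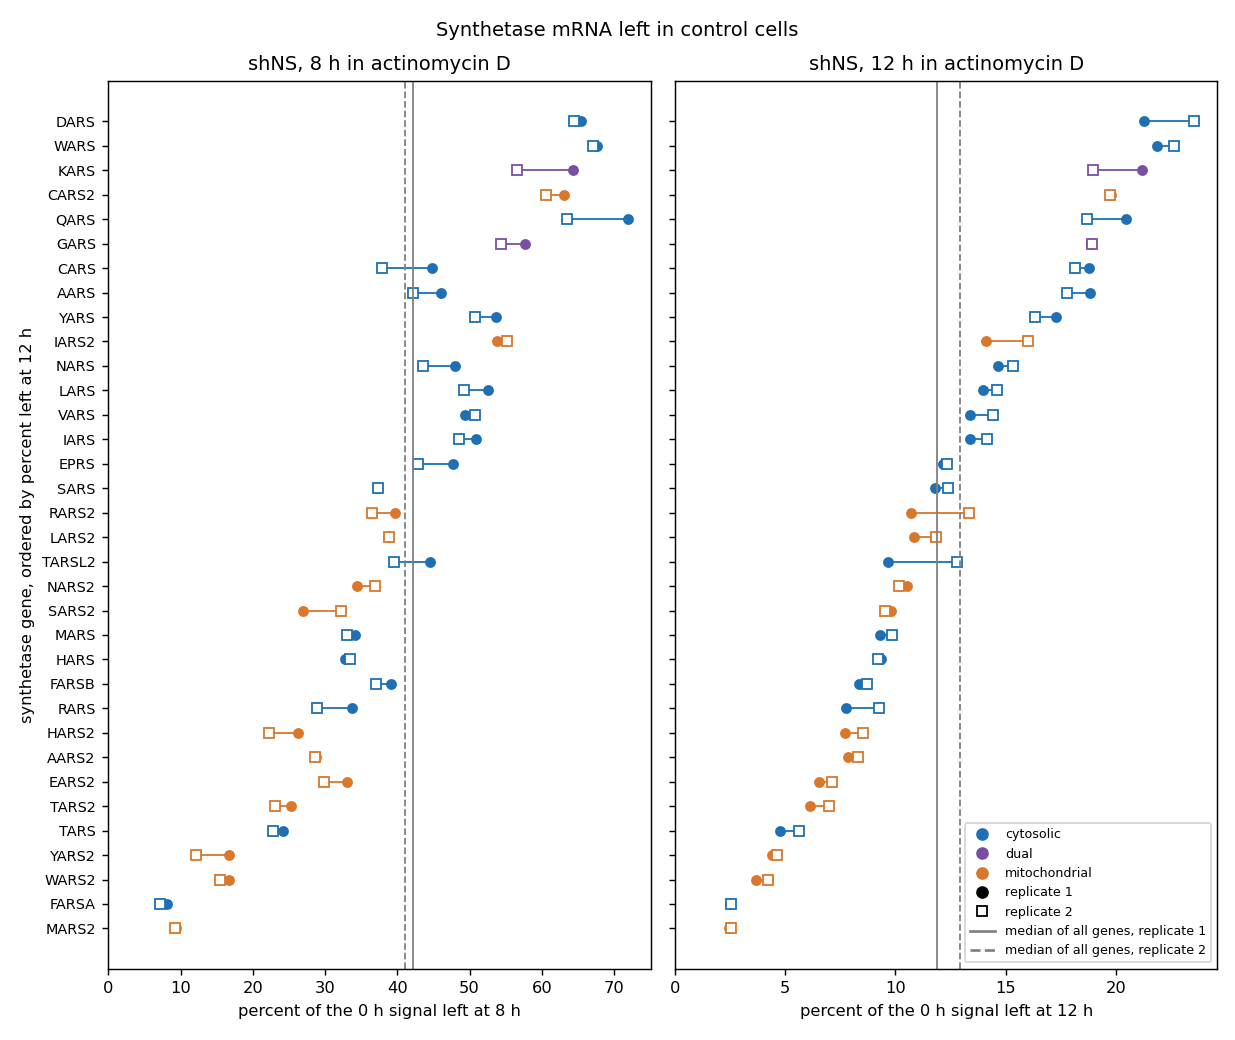
Percent of the 0 h signal left after 8 h (left) and 12 h (right) in actinomycin D for 34 of the 35 synthetase genes in shNS replicates 1 (filled) and 2 (open), coloured by where the enzyme works, with grey lines at the medians of all genes. The orange mitochondrial genes gather in the lower part of the order, with CARS2 and IARS2 as exceptions, and FARSA and MARS2 lie lowest at both times.

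To test single genes against the typical mRNA, the libraries were also rescaled by median of ratios, which sets the middle gene's change near 0. On that scale 4 synthetase genes were called higher by 8 h (DARS, GARS, IARS2 and QARS) and 7 lower (AARS2, FARSA, HARS2, MARS2, TARS, WARS2 and YARS2), against 18.9% and 23.6% of all genes. By 12 h 7 were higher (AARS, CARS2, DARS, GARS, KARS, QARS and WARS), against 24.6% of all genes. Another 11 were lower, among them FARSA, FARSB, RARS, TARS, MARS2, WARS2 and YARS2, against 27.0%. The mitochondrial genes made 1 of the 4 higher and 5 of the 7 lower calls at 8 h, and 1 of 7 and 7 of 11 at 12 h. These counts rest on single libraries in part: at 8 h they came to 7 in all without shNS 0 h replicate 1, without shNS 8 h replicate 1 or without shNS 8 h replicate 2. At 12 h they came to 9, 10 and 11 without shNS 0 h replicate 1, shNS 12 h replicate 1 and shNS 0 h replicate 2. In each of these fits fewer libraries stand behind the estimate. Leaving out a knockdown library moved the counts as well, because lines D and E enter the shared spread.

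FARSA and FARSB encode the catalytic and the other subunit of 1 enzyme, cytosolic phenylalanyl-tRNA synthetase, which works as a tetramer of both. Their mRNAs differed in decay, and at 0 h the shNS mean per kilobase was 54.2 for FARSA and 23.4 for FARSB. FARSA (chr19:12922479-12934037) read 101 and 96.0 in shNS replicates 1 and 2 at 0 h, 8.20 and 6.87 at 8 h and 2.52 and 2.44 at 12 h. FARSB (chr2:222570536-222656337) read 83.3 and 74.4 at 0 h, 32.6 and 27.5 at 8 h and 6.96 and 6.49 at 12 h. In percent of 0 h, FARSA had 8.14 and 7.16 left at 8 h and FARSB 39.1 and 37.0. FARSA was thus the lowest of the 35 at 8 h, at percentile 0.572 of all genes, while FARSB was near the middle, at percentile 43.9. Relative to the typical mRNA FARSA fell by 2.25 on the log2 scale at 8 h (SE 0.21, adjusted p = 0.000149), while FARSB was at -0.09 (SE 0.12, adjusted p = 0.585). FARSB passed the threshold only at 12 h (-0.51, SE 0.12, adjusted p = 0.00673), where FARSA was at -2.15 (SE 0.21, adjusted p = 0.000125).

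The mitochondrial methionine enzyme MARS2 had the shortest-lived mRNA beside FARSA. MARS2 (chr2:197705369-197708387), a gene of 1 exon in the annotation, read 19.9 and 20.05 in shNS at 0 h, 1.85 and 1.84 at 8 h and 0.488 and 0.509 at 12 h. That left 9.31% and 9.19% at 8 h and 2.45% and 2.54% at 12 h, percentile 0.488 of all genes, and relative to the typical mRNA it was at -1.75 at 12 h (SE 0.28, adjusted p = 0.000991). At 12 h its signal was under 1 in both replicates, so the log2(signal + 1) scale understates its fall. Its cytosolic partner MARS had 34.1% and 33.0% left at 8 h. WARS2, the mitochondrial tryptophan enzyme, read 15.7 and 13.5 at 0 h, 2.62 and 2.10 at 8 h and 0.579 and 0.570 at 12 h. YARS2, the mitochondrial tyrosine enzyme, read 9.75 and 10.2 at 0 h, 1.63 and 1.24 at 8 h and 0.431 and 0.470 at 12 h. Between 3.68% and 4.62% of either mRNA was left at 12 h. The annotated YARS2 gene overlaps DNM1L, so reads at its edge are uncertain.

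Among the cytosolic enzymes, the threonine enzyme TARS followed FARSA. TARS (chr5:33440696-33469539) read 136 and 119 at 0 h, 32.9 and 27.2 at 8 h and 6.48 and 6.73 at 12 h, leaving 4.75% and 5.63%. RARS, the arginine enzyme of the complex, read 68.2 and 62.5 at 0 h, 23.0 and 18.0 at 8 h and 5.29 and 5.80 at 12 h, leaving 7.75% and 9.27%. TARS was lower than the typical mRNA at both times (-0.76, SE 0.14, adjusted p = 0.00267 at 8 h and -1.21, SE 0.14, adjusted p = 0.000221 at 12 h). RARS passed only at 12 h (-0.52, SE 0.17, adjusted p = 0.0345).

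At the other end stood enzymes for aspartate, tryptophan, lysine and cysteine. DARS (chr2:135906677-135986100), the aspartate enzyme of the complex, read 233 and 206 at 0 h, 152 and 133 at 8 h and 49.6 and 48.5 at 12 h. It kept 65.5% and 64.5% at 8 h and 21.3% and 23.6% at 12 h, and was above the typical mRNA by 0.85 at 12 h (SE 0.13, adjusted p = 0.000793). WARS (chr14:100333788-100376805), the tryptophan enzyme and an interferon-response gene, read 48.1 and 45.1, then 32.5 and 30.2, then 10.5 and 10.2. KARS (chr16:75627474-75648643), the lysine enzyme of both compartments, read 180.4 and 178, then 116 and 101, then 38.2 and 33.7. WARS kept 21.9% and 22.7% at 12 h and KARS 21.2% and 19.0%. All 3 genes overlap a neighbour in the annotation (DARS-AS1, WDR25 and TERF2IP), which leaves reads in the shared stretches uncertain. The same holds for CARS2 with ING1, SARS2 with MRPS12 and EARS2 with UBFD1.

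Among the mitochondrial enzymes CARS2 and IARS2 escaped the general pattern, and RARS2 came next in percent left at 12 h. CARS2 (chr13:110641412-110713603), the mitochondrial cysteine enzyme, read 88.1 and 81.7 at 0 h, 55.6 and 49.5 at 8 h and 17.4 and 16.1 at 12 h, so that 19.8% and 19.7% was left. IARS2, the isoleucine enzyme, read 167 and 145, then 89.8 and 80.2, then 23.5 and 23.3. RARS2, the arginine enzyme, read 24.6 and 19.9, then 9.77 and 7.26, then 2.63 and 2.66. CARS2 and IARS2 lay above the median of all genes at both times in both replicates, and CARS2 was called above the typical mRNA at 12 h (0.66, SE 0.22, adjusted p = 0.0336). RARS2 kept 39.7% and 36.4% at 8 h, below that median in both replicates. At 12 h RARS2 kept 10.7% and 13.3%, on either side of the median of all genes.

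The order of percent left over the 35 genes was nearly the same in both shNS replicates (Spearman rho 0.985 at 8 h and 0.984 at 12 h), and between lines D and E rho was 0.780 and 0.791. Each pair of series compares the same genes on the same scaling, so these are descriptions. Among the 35 genes the better expressed ones kept more of their mRNA: rho between the shNS mean at 0 h and percent left at 12 h was 0.60 (n = 35), against 0.07 over 8752 genes. Percent left has the 0 h signal as its denominator. With the length of the annotated 3′ UTR rho was -0.38 among the 35 and -0.27 over all genes. With the density of GGAC, the 4 letters most often methylated by the METTL3 complex, rho was -0.08 and 0.23. The density of these letters in the mRNA therefore ordered the synthetase genes hardly at all.

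At 0 h no synthetase gene was called between the knockdown libraries and shNS by limma. An unadjusted p under 0.05 was seen for 9 of the 35, against 2115 of all 9529 genes. Of all genes 1.33% were called higher and 0.136% lower. The median log2 difference was 0.28 for the 35 genes and 0.23 for all genes. Both knockdown libraries lay above both shNS libraries for 22 of the 35 genes, against 46.4% of all genes, and below for 1 (DARS), against 6.88%. In this comparison the group spread includes the difference between hairpins. Set against shNS alone, line D gave 13 calls higher, against 43.4% of all genes, and 1 lower, against 9.17%, and line E gave 9 higher, against 18.6%, and 0 lower, against 3.19%. Each line is then 1 library a time, assumed to vary like the shNS replicates, which alone give the spread. Leaving out the line E library at 0 h gave 2 calls, both higher, MARS2 among them.

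Across all times, with line and time as terms in 1 model, FARSA was called higher in both lines and DARS lower in both, and no other synthetase gene was called in both. Of all genes 6.24% were called higher in both lines and 5.49% lower in both. Both lines are set against the same shNS libraries, so the line comparisons are not independent of each other. In line D 5 synthetase genes were called higher and 5 lower, against 22.2% and 20.2% of all genes, and in line E 5 were higher and 3 lower, against 11.7% and 10.6%. These shares are near the background. The model's SE is nearly the same for every gene (0.14 to 0.16 for these). Its p-values thus rest on a spread shared between genes and hardly on a gene's own scatter. The model also takes the 3 libraries of 1 line as independent.

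FARSA read 158, 12.8 and 5.95 at 0, 8 and 12 h in line D and 151, 19.2 and 8.85 in line E, against the shNS values above. Both lines lay above both shNS replicates at each of the 3 times, at 160% and 154% of the shNS mean at 0 h and 240% and 357% at 12 h. Its log2 difference over all times was 0.79 for line D (SE 0.16, adjusted p = 5.94e-06) and 1.12 for line E (SE 0.16, adjusted p = 2.13e-10). The percent left at 12 h was 3.78 (D) and 5.85 (E), against 2.50 and 2.54 in shNS. FARSB, the partner subunit, read 88.0, 17.0 and 5.29 (D) and 84.0, 21.4 and 5.61 (E). FARSB lay slightly above shNS at 0 h and below it at 8 and 12 h, and was not called (-0.31 in D, adjusted p = 0.108, and -0.20 in E, adjusted p = 0.393).

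DARS read 174, 53.9 and 23.8 in line D and 186, 77.1 and 23.3 in line E. Both lines lay below both shNS replicates at each time, at 79.2% and 84.9% of the shNS mean at 0 h, 37.8% and 54.1% at 8 h and 48.4% and 47.5% at 12 h. Over all times the log2 difference from shNS was -0.91 for line D (SE 0.16, adjusted p = 1.83e-07) and -0.72 for line E (SE 0.16, adjusted p = 0.000171). In line E the call was lost when only the 0 h and 8 h libraries were used, with a difference of -0.55 (adjusted p = 0.111). MARS2 read 39.6, 3.54 and 1.48 in line D and 27.6, 2.06 and 0.747 in line E, above both shNS replicates at each time. It was called in line D (0.78, SE 0.15, adjusted p = 1.64e-06) but not in line E (0.26, SE 0.15, adjusted p = 0.21).

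**Figure D3:**
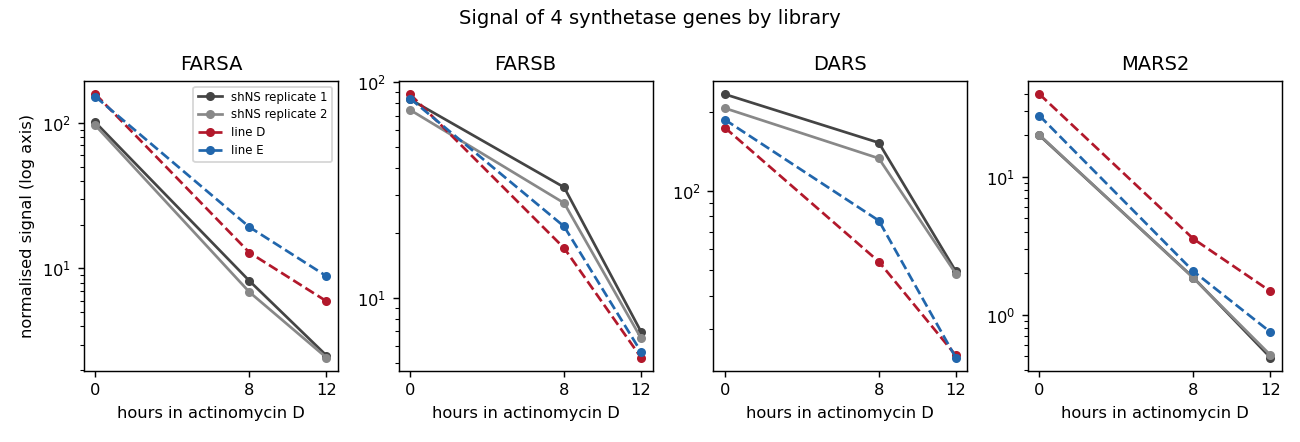
Normalised signal (log axis) of FARSA, FARSB, DARS and MARS2 against hours in actinomycin D, 1 line for each shNS replicate and each knockdown line. FARSA falls from 101 to 8.20 by 8 h in shNS replicate 1 while FARSB falls from 83.3 to 32.6, both knockdown lines lie above shNS for FARSA and MARS2 and below for DARS, and axes differ between panels.

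Outside these genes, different synthetase genes passed the threshold in the 2 lines. A call in 1 line alone is no test of a difference between lines, which follows below. MARS, LARS2, AARS2, EARS2 and KARS, named here, were not called in that direct test. MARS lay above both shNS replicates in both lines at each time. In line D the genes called higher besides FARSA and MARS2 were HARS (0.76, adjusted p = 1.89e-05), MARS (0.42, adjusted p = 0.0238) and LARS2 (0.37, adjusted p = 0.0463), the histidine, methionine and mitochondrial leucine enzymes. Those called lower besides DARS were IARS (-0.85, adjusted p = 1.13e-06), TARS2 (-0.76, adjusted p = 1.74e-05), YARS (-0.58, adjusted p = 0.00122) and LARS (-0.57, adjusted p = 0.00159). In line E WARS (0.64, adjusted p = 0.000767), VARS (0.62, adjusted p = 0.0014), AARS2 (0.48, adjusted p = 0.0187) and EARS2 (0.42, adjusted p = 0.0311) were called higher. CARS (-0.65, adjusted p = 0.000678) and KARS (-0.57, adjusted p = 0.00405) were called lower there. With other scalings the split moved: scaled to the ribosomal protein genes, which put the median of all genes at 0.29 (D) and 0.34 (E), 21 were higher and 5 lower in D, against 51.2% and 12.2% of all genes, and 27 and 2 in E, against 58.1% and 3.92%. With median-of-ratios scaling it was 9 and 10 in D, against 32.6% and 30.5%, and 13 and 4 in E, against 23.9% and 24.7%. The count in line D rose from 10 to 16, with 11 higher, without the line D library at 8 h. The count in line E fell from 8 to 5 without the line E library at 8 h and to 4 without that at 12 h.

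Line D and line E were then compared directly. This called 3 synthetase genes higher and 6 lower in D, against 14.2% and 14.9% of all genes. The 6 with the largest difference follow, with TARS2, the mitochondrial threonine enzyme, first. TARS2 (chr1:150487364-150507609) read 21.5, 3.37 and 1.35 in line D at 0, 8 and 12 h, 44.5, 9.39 and 3.16 in line E, 36.3, 9.19 and 2.22 in shNS replicate 1 and 33.5, 7.71 and 2.35 in replicate 2. Line D was the lowest and line E the highest of the 4 at each time (D minus E -1.03, SE 0.18, adjusted p = 6.7e-07). At 0 h line D held 61.5% and line E 127% of the shNS mean.

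CARS, the cytosolic cysteine enzyme, read 94.3, 28.4 and 16.6 (line D), 72.2, 17.0 and 6.27 (line E), 76.2, 34.2 and 14.3 in shNS replicate 1 and 75.2, 28.5 and 13.7 in replicate 2. Line E was the lowest of the 4 at each time (D minus E 0.79, SE 0.18, adjusted p = 0.000201). VARS, the valine enzyme, read 62.7, 20.6 and 7.37 (line D), 100.1, 41.0 and 12.3 (line E), 59.4, 29.3 and 7.95 in shNS replicate 1 and 55.8, 28.3 and 8.04 in replicate 2. Here line E was the highest of the 4 at each time (D minus E -0.77, SE 0.18, adjusted p = 0.000321).

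IARS, the isoleucine enzyme of the complex, read 169, 44.0 and 13.7 (line D), 242, 79.9 and 20.7 (line E), 219.5, 112 and 29.4 in shNS replicate 1 and 199.8, 97.1 and 28.2 in replicate 2. Line D was the lowest of the 4 at each time, and line E lay above shNS at 0 h and below it later (D minus E -0.64, SE 0.18, adjusted p = 0.00339). YARS, the tyrosine enzyme, read 166, 51.6 and 17.9 (line D), 243, 88.1 and 25.9 (line E), 185, 99.4 and 32.0 in shNS replicate 1 and 179.97, 91.2 and 29.4 in replicate 2. It showed the same order as IARS, though its annotated gene overlaps S100PBP (D minus E -0.60, SE 0.18, adjusted p = 0.00621). WARS read 64.2, 23.7 and 11.7 in line D and 91.4, 47.2 and 14.0 in line E. Line E exceeded both shNS replicates at each time, and line D did so at 0 and 12 h but not at 8 h (D minus E -0.57, SE 0.18, adjusted p = 0.00993). With median-of-ratios scaling 7 were higher and 7 lower in D than in E, against 28.0% and 24.9% of all genes. The 9 calls fell to 5 without the line E library at 8 h.

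**Figure D4:**
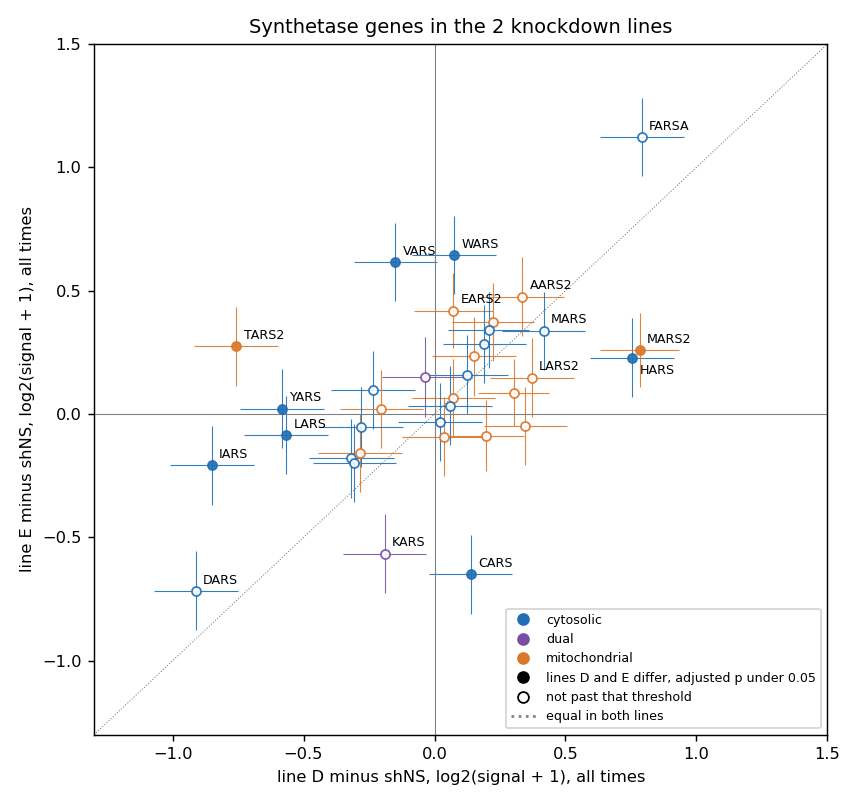
Difference from shNS over all times on the log2(signal + 1) scale in line D (x axis) and line E (y axis) for the 35 synthetase genes, with bars of 1 SE and filled points where the lines differ at adjusted p under 0.05. FARSA lies at 0.79 and 1.12 and DARS at -0.91 and -0.72, while TARS2 lies on opposite sides of 0 at -0.76 and 0.27. Both axes share the shNS libraries.

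The 8 enzymes of the multisynthetase complex summed to 1429, 797 and 229 at 0, 8 and 12 h in shNS replicate 1 and 1336, 687 and 215 in replicate 2. Line D gave sums of 1343, 427 and 169, and line E of 1529, 548 and 157. The summed signal of the complex was thus below both shNS replicates in both lines at 8 and 12 h. At 0 h line D lay between the shNS replicates and line E above them. At 8 h 7 of the 8 enzymes in each line lay below both shNS replicates, MARS excepted, against 70.3% (D) and 51.8% (E) of all genes, and all 8 had a negative difference of the 8 h change, as did 96.8% of all genes, with a median of -0.66 beside -0.48 for all genes. The median percent of the shNS mean at 8 h was 60.4 (D) and 76.5 (E) for the complex, and 74.4 and 91.2 for all genes. Of the scaffold genes, AIMP2 was called higher in both lines (0.90 in D, adjusted p = 2.04e-07, and 0.59 in E, adjusted p = 0.00234) and AIMP1 in neither. AIMP2 mRNA was short-lived, with 12.4% and 10.2% left at 8 h in shNS, while AIMP1 kept 46.6% and 41.8%.

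For the mitochondrial genes the median percent of the shNS mean at 0, 8 and 12 h was 124, 84.4 and 140 for line D and 125, 98.6 and 119 for line E. For the cytosolic genes it was 118, 73.7 and 101 (D) and 120, 92.6 and 93.3 (E). All genes had 124, 74.4 and 115 (D) and 114, 91.2 and 97.5 (E). Whether the compartments differ was not tested. At 8 h both lines lay below both shNS libraries for 14 of the 35 genes, against 42.8% of all genes, and above for 4 (FARSA, MARS, MARS2 and SARS2), against 10.4%. At 12 h they lay below for 11, against 25.0%, and above for 15, against 33.0%. Of these 15 genes 8 were mitochondrial.

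The change over time itself was compared between knockdown and shNS. No synthetase gene passed in the difference of the 8 h change by limma, with 5 of 35 at an unadjusted p under 0.05, or in that of the 12 h change, with 1. No gene of the whole table passed either, with 1560 and 337 of 9529 at an unadjusted p under 0.05, so the share of all genes called was 0 in both. The medians were -0.44 for the synthetase genes and -0.48 for all genes at 8 h, and -0.22 and -0.19 at 12 h. RARS had the lowest unadjusted p at 8 h (-1.10, SE 0.33, adjusted p = 0.299 by limma). It read 117, 11.7 and 5.44 (D) and 76.0, 15.3 and 5.90 (E), so that 9.96% and 20.2% was left at 8 h against 33.7% and 28.9% in shNS. With shNS replicate and line as blocks, 12 of the 35 genes were called lower in the difference of the 8 h change, against 26.1% of all genes, and 0 higher, against 0.105%. The libraries of a line deviated together over the times, those of an shNS replicate less so. With line D alone against shNS, its single library a time assumed to vary like the shNS replicates, 18 of the 35 were called lower, against 65.6% of all genes, and 0 higher, against 0.315%. At 12 h line D alone gave 1 higher and 3 lower, against 2.53% and 11.0%, and line E alone 1 higher and 4 lower, against 0.189% and 2.16%. The line D library at 8 h also kept less of all mRNA, with a median of 23.9% left against 33.6% in line E. The count with line E alone at 8 h is not given here.

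Other genes of tRNA charging and its surroundings were counted beside the synthetases. Of 17 amino acid stress genes, SLC7A5, the light chain of the large neutral amino acid transporter, was called at 0 h (1.01, SE 0.22, adjusted p = 0.0479), reading 63.6 and 61.8 in shNS against 132 (D) and 123 (E). Over all times 5 of the 17 were higher and 7 lower in line D, against 22.2% and 20.2% of all genes, and 5 higher and 2 lower in line E, against 11.7% and 10.6%. The stress genes thus moved in both directions. The largest calls in line D were DDIT4, an mTOR inhibitor (-1.0, adjusted p = 5.78e-09), DDIT3, the factor CHOP (0.67, adjusted p = 0.000175), and TRIB3, a pseudokinase (0.60, adjusted p = 0.000736). In line E they were SLC7A5 (0.77, adjusted p = 3.81e-05), the glutamine transporter SLC1A5 (0.65, adjusted p = 0.000815) and TRIB3 (0.63, adjusted p = 0.00121). DDIT3 overlaps MARS at its annotated end, and their shared reads are uncertain. ATF4 itself, named after its values were seen, was called lower over all times in line D (-0.47, adjusted p = 0.0115) and not in line E (-0.18, adjusted p = 0.467). It read 306 (D) and 343 (E) at 0 h, above the 249 and 237 of shNS, and the lower values came at 8 h, with 52.2% and 76.4% of the shNS mean, and at 12 h, with 56.1% and 63.7%.

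Of 11 genes for tRNA end processing and export, none was called at 0 h by limma. An unadjusted p under 0.05 was seen for 8 of them, against 2115 of all 9529 genes. Over all times 5 were higher and 1 lower in line D, and 1 was higher in line E. The shares of all genes to set beside these counts and those of the next 3 lists are 22.2% higher and 20.2% lower in line D and 11.7% and 10.6% in line E. POP7, a subunit of RNase P, was higher in both (0.84, adjusted p = 1.56e-06 in D and 0.43, adjusted p = 0.0385 in E). XPOT, the exporter of tRNA, was lower in line D (-0.79, adjusted p = 7.43e-06). Of 4 selenocysteine tRNA genes 3 were higher in line D, PSTK by 0.72 (adjusted p = 3.42e-06), and none passed in line E, with 1 at an unadjusted p under 0.05. Of 7 genes for editing, recycling and delivery of charged tRNA 2 were higher in line D, PTRHD1 and PTRH2, and none passed in line E, with 0 at an unadjusted p under 0.05. Of 4 genes for mitochondrial formylation and amidation 1 was higher in line D, GATB, and none in line E, with 2 at an unadjusted p under 0.05. In line E 3208 of all 9529 genes had an unadjusted p under 0.05. Relative to the typical mRNA, 3 of the 4 formylation and amidation genes were called lower at 12 h in shNS, against 27.0% of all genes. They were QRSL1 at -1.07 (adjusted p = 0.00036), MTFMT at -0.97 (adjusted p = 0.00447) and GATC at -0.76 (adjusted p = 0.000593).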

How the data were processed

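The deposited values are a normalised expression signal per gene symbol and library, made by the authors. STAR, RSEM and the build GRCh38 are listed in the submitters' processing notes, and the sources used here state no version or setting. Because the 46 ERCC transcripts kept a level median while the gene total fell, the values appear to have been scaled to these spike-ins, although no label says so. Libraries were made with a stranded kit, per the labels' protocols. The synthetase genes and all lists were chosen with earlier results of these data known.

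Values were tested as log2(signal + 1) with limma 3.58.1 in R 4.3.3 (mean-variance trend, empirical Bayes, Benjamini-Hochberg over all 9529 genes, each with a mean of at least 1), and adjusted p under 0.05 was called. A fold on this scale understates the change of low genes. A model of 6 group means gave the comparison at 0 h, the changes over time and their differences, and the same model after median-of-ratios scaling gave changes relative to the typical mRNA. An additive model of time and line gave lines D and E against shNS and D minus E. Percent left divides each later signal by the 0 h signal of its own replicate or line. The procedure was tested on simulated data in which each library varied independently. The libraries of a line deviated together, so the simulation cannot check the p-values of the line comparisons. Coordinates, mRNA lengths and overlaps are from GENCODE release 29 and promoter windows from RefSeq GRCh38.p14.

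Library values were given in full for ALKBH5, the 3 cytosolic or dual and 3 mitochondrial genes with most and least mRNA left at 12 h in shNS, genes called alike in both lines, and the 6 called genes with the largest difference between lines. Up to 3 called genes per other list were named by size of change. FARSB values and those of lines D and E for some of these genes, added as comparators, and the listed called members were named after their values were seen. A synthetase gene and a marker gene that enter the counts are not reported here by name. Deviations of the shNS replicates from their group means correlated at 0.271, 0.0651 and 0.138 between times, while those of the lines correlated at 0.657 to 0.900. The shNS numbers were therefore not taken as pairs in the main tests, though percent left matches libraries by them. Alternatives were other filters, scalings and a pseudocount of 0.1, limma without trend, the replicate block, each line alone, fewer times and leaving out each library. A correlation within lines and the mean of each line were added after seeing the data.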

Additional observations from a re-analysis of the deposited data

Results flagged for a closer look

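A direct test of line D against line E over all times, the 2 hairpin lines under the same knockdown, passed for 9 synthetase genes (limma, adjusted p under 0.05). Of all genes 14.2% passed as higher in line D and 14.9% as lower. The difference, D minus E on the log2 scale, was -1.03 for TARS2, -0.77 for VARS, -0.64 for IARS, -0.60 for YARS, -0.57 for WARS and -0.48 for LARS, all lower in line D. It was 0.79 for CARS, 0.53 for HARS and 0.52 for MARS2, all higher in line D. Of these 9, TARS2 and VARS passed in all 23 alternatives, CARS in 22, IARS and MARS2 in 20, WARS and YARS in 19, HARS in 16 and LARS in 13. The 23 include the setting without a filter, which removed no gene and could change nothing. Leaving out an shNS library cannot move D minus E itself, only its p-value. Each line is 3 libraries, and no label says whether they came from 1 culture. Hairpin and culture cannot be told apart.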

How the results depend on the processing

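Several counts of called synthetase genes changed with the settings, and the cause was not tested. The share of all genes called at 0 h also changed with each line alone, as given with those counts above. Against shNS at 0 h the count of 0 became 14 with line D alone and 9 with line E alone, and 0 to 2 leaving out each library. Median-of-ratios scaling took the counts on the deposited scale from 34 to 11 at 8 h and from 35 to 18 at 12 h, by its own construction. Leaving out each library gave 27 to 35 at 8 h and 35 at 12 h. Relative to the typical mRNA these ranges were 7 to 14 at 8 h and 9 to 19 at 12 h. The replicate block gave 22 there at 8 h in place of 11, and 25 at 12 h in place of 18. The share of all genes called in that setting is not given here, so the rise cannot be set against it. For the difference of the 8 h change the replicate block gave 12, all lower, and line D alone 18, all lower, in place of 0, against 26.1% and 65.6% of all genes lower. For that of the 12 h change line D alone gave 4, of which 3 lower, and line E alone 5, of which 4 lower, in place of 0, against 11.0% and 2.16% of all genes lower. Both stayed at 0 leaving out each library. The count for the 8 h change with line E alone is not given here.

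In line D the count of 10 became 19 with median-of-ratios scaling, 26 with ribosomal protein scaling and 6 with 0 h and 8 h only, and 8 to 16 leaving out each library. In line E the count of 8 became 17, 29 and 2 in the same settings, 5 with the mean of each line, and 4 to 12 leaving out each library. For D minus E the count of 9 became 14, 15 and 3, 4 with the mean of each line, and 5 to 11 leaving out each library. Median-of-ratios scaling called 32.6% of all genes higher and 30.5% lower in D, and 23.9% and 24.7% in E. For D minus E it called 28.0% and 24.9%. Apart from ribosomal protein scaling in D and E, the shares for the other settings are not given here. Ribosomal protein scaling put the median of all genes at 0.29 (D) and 0.34 (E). Of all genes, ribosomal protein scaling called 51.2% higher and 12.2% lower in D, and 58.1% and 3.92% in E. The split in line D went from 5 higher and 5 lower to 21 and 5 with it, and in line E from 5 and 3 to 27 and 2. FARSA in both lines and DARS, IARS, HARS, MARS2 and TARS2 in line D passed in all 23 alternatives, and no called synthetase gene changed sign. The 23 include the void setting without a filter. Leaving out a library of the other line cannot move a line's difference from shNS, only its p-value. ALKBH5 in line D minus line E went from -0.36 (adjusted p = 0.126) to 0.14 without knockdown 8 h line D (adjusted p = 0.559), and ranged from -0.80 to 0.14 leaving out each library.

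No paired analysis was possible for lines D and E against shNS because the line is the block. The setting without a filter removed no gene and is void. Read depth, which would set the precision of low genes such as YARS2 and WARS2, is unknown, and 2 libraries a group limit every test.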
